A study of Mus musculus with 16 samples.

Results

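The enzymes of oxidative phosphorylation were followed in mouse liver through the probe sets of an Affymetrix expression array whose platform gene symbol begins with Nduf, Sdha to Sdhd, Uqcr, Cox4 to Cox8 or Atp5. There were 167 such probe sets among the 22626 tested, and the genes they name are 87 of the 12393 with a single symbol. Of the 167, 160 carried a single symbol, and 79 of their 87 genes are subunits of complexes I to V and 8 are assembly factors named after the complex they help to build. The other 7 carried several symbols, name no gene here and are counted apart. Complex I had 68 probe sets of 34 genes, complex II 7 of 4, complex III 15 of 8, complex IV 32 of 16, complex V 28 of 17, and the assembly factors 10 of 8.

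All mice were FvB/n males. The first experiment compared AP20187-treated with untreated TTR::Fv2E-PERK mice, 4 arrays each, and the design text calls the injection of the untreated mice mock. In these mice a high-expressing transgene under the transthyretin promoter, which is active in hepatocytes, makes Fv2E-PERK, a fusion of the stress kinase PERK to drug-binding domains, and the compound AP20187 joins 2 such molecules. All 8 arrays carried the transgene, and AP20187 without it was not analysed here. The second experiment held 2 arrays each of HFD Alb::GC, HFD wildtype, LFD Alb::GC and LFD wildtype mice, where HFD and LFD are a high and a low fat diet. Alb::GC mice express, under the hepatocyte promoter of albumin, an active fragment of GADD34. That protein is a regulatory subunit of the phosphatase that takes the phosphate off the translation factor eIF2α. The labels give no dose, time, age or length of diet. Replicate 2 of the LFD wildtype group has both genotypes in its source name and replicate 4 of the AP20187 group a single letter, and both were grouped by their descriptions. The question behind both experiments was which liver genes follow the integrated stress response, the change in translation and transcription that starts with phosphorylation of eIF2α.

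Oxidative phosphorylation passes electrons from nutrients to oxygen along the inner mitochondrial membrane. Complex I (NADH dehydrogenase) and complex II (succinate dehydrogenase) feed electrons in, complex III (the cytochrome bc1 complex) passes them to cytochrome c, and complex IV (cytochrome c oxidase) gives them to oxygen, while complex V (ATP synthase) uses the proton gradient to make ATP. Hepatocytes are rich in mitochondria, and nearly all the subunits are made from nuclear genes, whose transcripts are measured here.

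The values are ratios on a linear scale around 1, and the labels do not say what they were taken against. They hold no absolute level, so neither genes nor the 2 experiments can be ranked against each other, and the presence of liver markers could not be checked. Differences are on the log2(ratio + 0.05) scale, given with their standard error, and a probe set is called higher or lower where limma's adjusted p over the 22626 probe sets is under 0.05. Whether the arrays of a group stand for separate animals is unstated, and the p-values therefore cover only array-to-array spread, part of which may be technical. In whole liver, fewer cells of a type and less RNA per cell cannot be told apart.

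Transcripts of every complex were lower in AP20187-treated livers than in untreated livers. The median ratio over the 160 probe sets was 0.945, 0.86, 1 and 0.9 on the 4 AP20187 arrays, against 1.535, 1.43, 1.485 and 1.64 on the 4 untreated arrays. The groups did not overlap, nor did they for the median of any complex or of the assembly factors. The means of the array medians lay furthest apart in complex V, with medians of 0.835 to 1.03 in AP20187 livers and 1.545 to 1.84 in untreated livers. Complex III lay at 0.88 to 0.99 in AP20187 livers and 1.32 to 1.43 in untreated livers, and complex IV at 0.82 to 0.985 and 1.32 to 1.44 in the same order. In the diet experiment the medians over all members were 0.91 and 0.9 in HFD Alb::GC, 0.93 and 0.965 in HFD wildtype, 0.96 and 1.03 in LFD Alb::GC and 1.215 and 1.11 in LFD wildtype livers. Both LFD wildtype arrays were the highest of the 8 for this measure, and both HFD Alb::GC arrays the lowest. Complex II did not follow that order, at 1.02 and 1.04 in HFD Alb::GC, 0.99 and 1.1 in HFD wildtype, 0.96 and 0.95 in LFD Alb::GC and 1.17 and 1 in LFD wildtype livers.

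**Figure D1:**
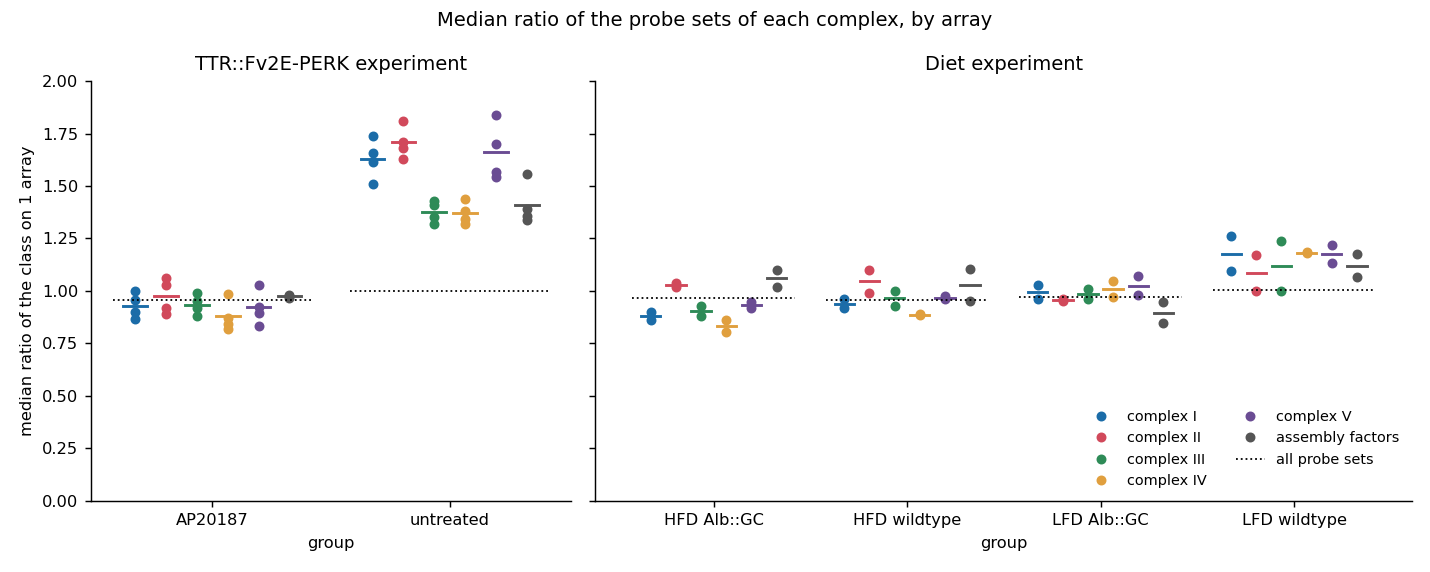
Median ratio of the probe sets of each complex (vertical axis, linear scale, no unit) on each array, by group (horizontal axis); points are arrays, short bars the group mean and dotted lines the group mean of the median over all probe sets. With AP20187 every class lay at or below 1.06, while in untreated livers every class lay at or above 1.32. What the ratios of each panel were taken against is not stated, so sizes are not compared between the panels.

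With AP20187, 132 of the 160 member probe sets were lower, 2 were higher and 26 were not called. Across all probe sets tested, 20.4% were lower and 13.7% higher. The median difference of the members was -0.72, a fold of 0.607, beside -0.13 for all probe sets. By gene, 79 of 87 had at least 1 probe set lower and none higher, 1 gene (Ndufaf4) was higher and 7 had no call, and in 66 genes every probe set was lower. The share of probe sets called lower was 92.6% in complex I (63 of 68), 100% in complex II (7 of 7), 66.7% in complex III (10 of 15), 62.5% in complex IV (20 of 32), 92.9% in complex V (26 of 28) and 60% among the assembly factors (6 of 10). The medians ran from -0.44 in complex III and -0.64 in complex IV to -0.74 in complex II, -0.80 in complex I and -0.85 in complex V. All 4 AP20187 arrays lay below all 4 untreated arrays for 130 of the 160 members, against 20.5% of all probe sets. Of the 7 probe sets with several symbols, 6 were lower.

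**Figure D2:**
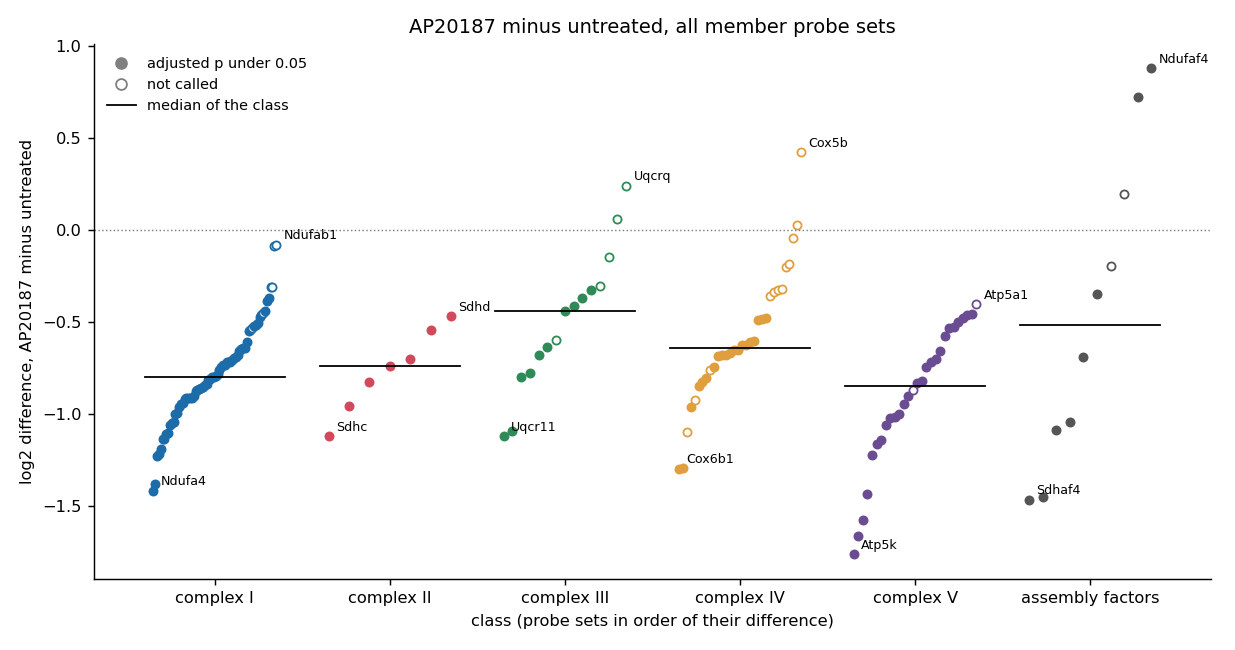
Difference between AP20187 and untreated livers for each of the 160 member probe sets (vertical axis, log2), by class and in order of size (horizontal axis); filled points were called and horizontal bars are class medians. Atp5k of complex V lies lowest at -1.76 and the called points above 0 are the 2 probe sets of Ndufaf4; the open points near 0 are mostly in complexes III and IV.

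Complex I was lower in all 34 of its genes. Among them Ndufa4, long counted in complex I and now assigned to complex IV, had ratios of 0.81, 0.73, 0.94 and 0.67 in AP20187 livers, against 2.05, 2.01, 2.23 and 2.4 in untreated livers. No AP20187 array came near an untreated one, and the difference was -1.41 ± 0.12 (limma, adjusted p = 0.000122). Ndufs8, a core subunit that carries iron-sulfur clusters, had 6 probe sets, of which 5 were lower, from -1.38 ± 0.11 to -0.66 ± 0.14, and the other stood at -0.31 ± 0.11 (adjusted p = 0.0684). Ndufa3 and Ndufb7, accessory subunits, were lower by their 2 probe sets each, at -1.23 and -1.10 for Ndufa3 and -1.22 and -1.19 for Ndufb7. Ndufs4, an accessory subunit next to the NADH-binding end, fell in all 3 probe sets but by sizes from -1.13 ± 0.14 to -0.31 ± 0.10, and 9 of 14 alternative settings did not keep the smallest of these calls (adjusted p up to 0.143). The core subunits include those that carry the flavin and iron-sulfur clusters. Core and accessory subunits had like medians, -0.75 over 16 probe sets (15 lower) and -0.80 over 52 (48 lower). The smallest falls by median over a gene's sets were in Ndufa6, Ndufv1 and Ndufs1. Ndufs1, the largest core subunit, had ratios of 0.98, 0.95, 1.02 and 0.88 in AP20187 livers, against 1.32, 1.35, 1.21 and 1.52 in untreated livers, without overlap (-0.47 ± 0.09). Each of the 5 complex I probe sets without a call, among them 1 of Ndufab1 at -0.08 ± 0.38, had a sister set of the same gene that was lower.

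In complex II, the only complex without mitochondrially encoded subunits, all 7 probe sets of 4 genes were lower. Sdhc, a membrane anchor, had ratios of 1.03, 0.8, 1.16 and 0.92 in AP20187 livers, against 2.25, 2.01, 1.98 and 2.45 in untreated livers, and its second probe set also fell (-1.12 ± 0.13 and -0.82 ± 0.09). Sdhd, the other anchor, was tighter within groups, at 1.02, 0.87, 1 and 0.92 with AP20187, against 1.83, 1.92, 1.9 and 1.93 untreated, a difference of -0.96 ± 0.08 (limma, adjusted p = 0.000116). The second Sdhd set stood at -0.47 ± 0.09. Sdha, the flavoprotein that oxidises succinate, fell by 0.74 and 0.70 on the log2 scale, and Sdhb, the iron-sulfur subunit, fell by 0.55 (adjusted p = 0.00425).

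All 8 genes of complex III were lower by at least 1 probe set, but its probe sets were less uniform. Uqcr11, a small subunit, had ratios of 1.04, 0.92, 1.23 and 0.88 in AP20187 livers, against 2.3, 2.05, 2.09 and 2.6 in untreated livers, with no overlap (-1.12 ± 0.13, adjusted p = 0.000489). Uqcrh, the hinge protein at the cytochrome c1 side, stood at -1.09 ± 0.13. The core proteins fell by less: Uqcrc1 by 0.42 and Uqcrc2 by 0.44 and 0.37. Uqcrfs1, the Rieske iron-sulfur protein, stood at -0.68 ± 0.12. Uqcrq and Uqcr10 were the 2 genes of this complex whose probe sets disagreed. For Uqcrq, a small subunit, 1 of 4 sets was lower at -0.78 ± 0.13 and the others stood at -0.31 ± 0.16, -0.15 ± 0.22 and 0.24 ± 0.26. For Uqcr10, 1 of 3 sets was lower (-0.32 ± 0.09, a call that 4 of 14 alternatives lost, with adjusted p up to 0.0662), 1 stood at -0.60 ± 0.22 (adjusted p = 0.0661) and 1 at 0.06 ± 0.14.

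In complex IV, 10 of 16 genes were lower and 6 had no call. Cox6b1, which lies between the monomers of the dimer, had ratios of 0.92, 0.72, 1.07 and 0.72 in AP20187 livers, against 2.11, 1.83, 2.28 and 2.39 in untreated livers. Its probe sets gave the same size, -1.29 ± 0.15 and -1.30 ± 0.15 (limma, adjusted p = 0.000463 and 0.000487). Cox5a, a subunit on the matrix side, also had 3 probe sets of like size with AP20187, at -0.62, -0.62 and -0.60, all lower. Cox4i1, the widely expressed form of the largest nuclear-encoded subunit, fell by 0.49, and Cox6a1 by 0.48 in both sets. The widely expressed isoforms Cox4i1, Cox6a1, Cox6b1, Cox7a2 and Cox8a together had 9 of 10 probe sets lower, with a median of -0.67. The tissue-restricted isoforms Cox4i2 (lung), Cox6a2, Cox7a1 and Cox8b (heart and muscle), and Cox6b2 and Cox8c (testis) had 1 of 6 lower, Cox7a1 at -0.74 ± 0.18 (adjusted p = 0.0142), with a median of -0.33. Cox8b had ratios of 1.93, 0.38, 0.61 and 0.42 in AP20187 livers and 1.63, 2.61, 1.11 and 0.37 in untreated livers, which overlapped widely. Cox7a2l, a supercomplex factor related to Cox7a2, had ratios of 1.01, 0.91, 0.95 and 0.97 with AP20187, against 0.94, 1.13, 0.92 and 0.99 untreated, by 1 of its 3 probe sets. Those groups overlapped, and its 3 sets stood between -0.19 ± 0.10 and 0.02 ± 0.10, on either side of 0. Cox5b, a zinc-binding subunit, disagreed: 4 of its 6 sets were lower (-0.96 to -0.68), while 1 stood at -0.36 ± 0.20 and 1 at 0.42 ± 0.76, the last with ratios of 0.16, 0.25, 0.14 and 1.56 in AP20187 livers, against 0.21, 0.13, 0.15 and 0.59 in untreated livers. Without AP20187 replicate 4 that set turned to -0.28.

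All 17 genes of complex V were lower. The small membrane subunits (Atp5k, Atp5l, Atp5j2, Atp5md and Atp5mpl), which lie at the dimer interface, had a median of -1.30 over 8 probe sets, all lower. Atp5k, subunit e, had ratios of 0.99, 0.8, 1 and 0.96 in AP20187 livers, against 3.2, 3.13, 3.32 and 3.51 in untreated livers. Every untreated array was more than 3 times every AP20187 array, and the 3 Atp5k sets stood at -1.76 ± 0.11, -1.66 ± 0.15 and -1.57 ± 0.14 (limma, adjusted p = 8.51e-05, 0.000154 and 0.00015). Atp5md, the DAPIT subunit, had ratios of 0.71, 0.66, 1.1 and 0.9 with AP20187, against 2.98, 1.58, 1.77 and 3.45 untreated. Its groups did not overlap but the untreated arrays spread widely (-1.43 ± 0.28). Atp5mpl stood at -1.16 ± 0.14. The peripheral stalk (Atp5pb, Atp5h, Atp5j and Atp5o) had a median of -0.83 over 7 probe sets, all lower. The head and central stalk, where ATP is made, had a median of -0.57 over 9 probe sets, 8 of them lower. In it Atp5b, the catalytic β subunit, had ratios of 0.94, 0.92, 1.03 and 0.96 in AP20187 livers, against 1.35, 1.38, 1.24 and 1.38 in untreated livers. These did not overlap (-0.45 ± 0.08, adjusted p = 0.00244), and Atp5a1, the α subunit, stood at -0.53 ± 0.08 and -0.48 ± 0.13 in its called sets. Atp5e, the ε subunit of the stalk, was lower as well, with ratios of 0.71 to 1.03 in AP20187 livers and 1.6 to 2.13 in untreated livers. The 3 genes that encode the same mature c-ring subunit differed in size, with Atp5g1 at -1.22 ± 0.09 and Atp5g3 at -0.50 ± 0.07. Atp5g2 stood at -0.46 ± 0.14 in its called set and at -0.87 in its other set, which was not called. The difference between these genes was not tested.

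**Figure D3:**
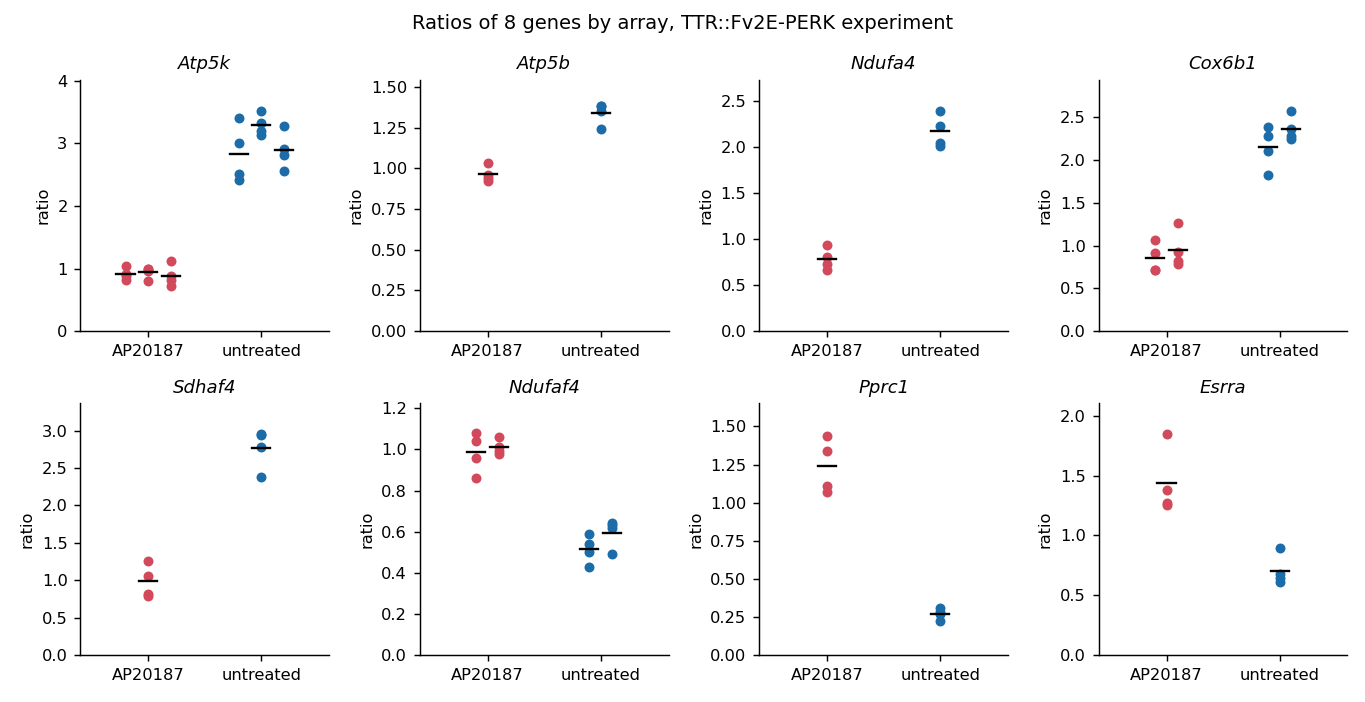
Ratio on each array (vertical axes, linear from 0, no unit) for 8 genes in AP20187 and untreated livers (horizontal axes), with a column of 4 points per probe set and bars at the mean. Atp5k, Atp5b, Ndufa4, Cox6b1 and Sdhaf4 were lower with AP20187, Ndufaf4 and the regulators Pprc1 and Esrra were higher, and in no panel do the groups overlap.

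The assembly factors included both the largest falls outside complex V and the only rise. Sdhaf4, which binds the flavinylated Sdha during assembly of complex II, had ratios of 1.06, 0.79, 1.26 and 0.82 in AP20187 livers, against 2.78, 2.38, 2.94 and 2.95 in untreated livers (-1.46 ± 0.16, limma, adjusted p = 0.000413). Ndufaf7, a methyltransferase, stood at -1.45 ± 0.15, Ndufaf5, which hydroxylates Ndufs7, at -1.08 ± 0.15, Ndufaf1 at -1.04 ± 0.09 and Ndufaf3 at -0.69 ± 0.10, all lower. Ndufaf4, which works with Ndufaf3 in early complex I assembly, went the other way. Its ratios were 1.04, 1.08, 0.96 and 0.86 in AP20187 livers, against 0.59, 0.43, 0.54 and 0.5 in untreated livers. In the second set they were 0.98, 1.01, 0.99 and 1.06 with AP20187, against 0.64, 0.49, 0.63 and 0.62 untreated. Neither set overlapped between the groups, and the rises were 0.88 ± 0.16 and 0.72 ± 0.14 (adjusted p = 0.00431 and 0.00477). Sdhaf1, which helps to place iron-sulfur clusters in Sdhb, stood at 0.20 ± 0.10 (adjusted p = 0.169). Sdhaf2, which attaches the flavin to Sdha, was lower in 1 of 2 sets, at -0.35 ± 0.11 (adjusted p = 0.0391), and not called in the other (-0.19 ± 0.19).

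Other genes of the pathway, listed by function, are given as background to the members. These lists were chosen with earlier results of these data known. Across all probe sets 20.4% were lower and 13.7% higher with AP20187. Of 5 genes of electron carriers and complex III outside the name rule, 4 were lower with AP20187, among them Cyc1 (cytochrome c1) at -0.64 ± 0.12 and Cycs (cytochrome c) at -0.59, -0.48 and -0.47. All 8 measured assembly factors of complex IV were lower by 12 of 13 probe sets, with the 4 sets of Cox15, a heme a synthase, between -1.55 and -1.22. Of 10 further assembly factors of the other complexes 6 were lower, and Ttc19, a complex III factor, was higher at 0.52 ± 0.15 (limma, adjusted p = 0.0332). The ATP synthase inhibitor (Atpif1) and the adenine nucleotide and phosphate carriers (Slc25a4, Slc25a5 and Slc25a3) had 8 of 15 probe sets lower. The citrate cycle had 9 of 20 probe sets lower with a median of -0.40, among them Idh3g at -0.68 and -0.64, while citrate synthase (Cs, 3 sets) had none. The single measured transcript of the mitochondrial genome, ND5 of complex I, was also lower, at -0.38 ± 0.09 (adjusted p = 0.0138).

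The regulators of respiratory chain genes lay mostly above 0. Of 12 such genes 9 were higher by 14 of 25 probe sets and none was lower, with a median of 0.67. Across all probe sets 13.7% were higher and 20.4% lower. Pprc1, a coactivator of the PGC-1 family, had ratios of 1.11, 1.44, 1.34 and 1.07 in AP20187 livers, against 0.28, 0.22, 0.27 and 0.31 in untreated livers (2.01 ± 0.20, limma, adjusted p = 0.000269). Esrra, the nuclear receptor ERRα, had 1.27, 1.25, 1.85 and 1.38 with AP20187, against 0.68, 0.61, 0.89 and 0.64 untreated (0.97 ± 0.16). Neither gene overlapped between the groups. Gabpb1, a subunit of the factor NRF-2, rose by 1.13 ± 0.17 and 0.59 ± 0.14, and Nrf1 rose in all 3 sets, by 0.36 to 1.52, where 7 of 14 alternatives lost the smallest call and 6 the middle. Ppargc1a, which encodes PGC-1α, was called in 1 of 5 sets, at 0.70 ± 0.19 (adjusted p = 0.0218, up to 0.0615 over the alternatives). There its ratios were 1.82, 1.71, 1.03 and 1.86 in AP20187 livers, against 1.03, 0.99, 0.95 and 0.83 in untreated livers, so that replicate 3 of the AP20187 group stood with the untreated arrays. Tfam, the packaging factor of mitochondrial DNA, stood at -0.11 ± 0.10, and its sign turned under quantile normalization (0.01).

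Promoters are shown because the members moved together with AP20187: those of the gene with the largest fall in each class among genes with a single window, and that of Ndufaf4. RefSeq (GRCm38.p6) gave a window of 300 bases, 250 before to 50 after the transcript start, for 73 of the 87 genes and for 27025 genes in all. Both strands were searched for 5 motifs: NRF1 (GCATGCGC), ETS, the family of NRF-2 (CCGGAAG), YY1 (AAGATGGC), ERR (AAGGTCA) and the C/EBP-ATF element of stress response genes (TGATGNAA); none of these contains another. The NRF1 letters stood in 15.1% of the members' windows and 3.05% of all windows by gene, the ETS letters in 27.4% and 9.93%, YY1 in 12.3% and 3.19%, ERR in 9.59% and 5.38%, and the C/EBP-ATF letters in 0% and 4.51%. These are matches of letters in promoters that differ in base composition, and are neither sites nor tests. The 150 bases before the start follow, on the coding strand from 5′ to 3′, with any match to the 5 motifs in capitals, and only NRF1 (in Atp5k and Ndufaf4, on both strands) and ETS letters occurred.
Atp5k (chr5:108434400-108434549, minus strand): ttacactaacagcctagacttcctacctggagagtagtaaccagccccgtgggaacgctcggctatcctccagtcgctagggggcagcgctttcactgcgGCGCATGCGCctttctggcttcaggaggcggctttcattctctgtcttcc
Ndufaf4 (chr4:24897933-24898082, plus strand): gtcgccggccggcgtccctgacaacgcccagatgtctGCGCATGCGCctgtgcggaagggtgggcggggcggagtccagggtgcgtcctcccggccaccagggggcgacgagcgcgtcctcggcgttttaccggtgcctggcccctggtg
Cox6b1 (chr7:30626115-30626264, minus strand): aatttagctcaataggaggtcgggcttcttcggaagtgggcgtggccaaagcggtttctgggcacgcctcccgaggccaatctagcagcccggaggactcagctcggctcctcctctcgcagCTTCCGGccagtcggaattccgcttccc
Sdhd (chr9:50603850-50603999, minus strand): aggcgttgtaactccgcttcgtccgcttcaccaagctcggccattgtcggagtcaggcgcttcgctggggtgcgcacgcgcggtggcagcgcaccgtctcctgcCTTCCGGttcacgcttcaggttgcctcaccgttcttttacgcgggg
Uqcr11 (chr10:80406822-80406971, minus strand): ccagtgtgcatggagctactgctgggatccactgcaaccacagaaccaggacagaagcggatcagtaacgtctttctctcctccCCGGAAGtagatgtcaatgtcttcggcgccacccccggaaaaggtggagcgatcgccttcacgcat
Ndufa4 (chr6:11907451-11907600, minus strand): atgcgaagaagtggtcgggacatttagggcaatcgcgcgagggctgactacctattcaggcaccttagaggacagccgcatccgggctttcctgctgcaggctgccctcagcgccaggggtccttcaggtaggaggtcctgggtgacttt
Sdhaf4 (chr1:24005641-24005790, minus strand): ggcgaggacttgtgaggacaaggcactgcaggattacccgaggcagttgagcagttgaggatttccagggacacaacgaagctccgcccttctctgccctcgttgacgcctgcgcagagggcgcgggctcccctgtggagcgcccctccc
The same palindromic NRF1 letters stood before Atp5k, which fell most, and before Ndufaf4, which rose. Ndufa4 and Sdhaf4 held none of the 5 motifs in these 150 bases.

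Other values moved with AP20187 as well. The median of all probe sets shifted by -0.13, and with each array centred on its median the members still had 130 probe sets lower and a median of -0.66. Of 18 hepatocyte marker probe sets 13 were lower and 3 (of Hnf4a) higher, and their summed ratio was 15.95 to 18.84 in AP20187 livers, against 26.96 to 32.39 in untreated livers. The 11 stellate cell and fibroblast probe sets (7 lower) summed to 9.58 to 10.58 with AP20187 and 18.93 to 24.41 untreated. The 10 macrophage probe sets (5 lower, 1 higher) summed to 7.91 to 10.32 with AP20187 and 11.01 to 11.86 untreated. Endothelial markers had 2 of 8 lower (sums of 6.51 to 8.31 with AP20187 and 9.19 to 11.31 untreated). Lymphocyte markers had 1 of 8 lower (5.4 to 7.28 and 7.28 to 11.29). Muscle and adipocyte markers had 0 of 6 called, 0 of them at an unadjusted p under 0.05 by limma (3.51 to 4.98 and 4 to 6.47). Across all probe sets 20.4% were lower and 13.7% higher. The endothelial and lymphocyte counts did not stand out from the lower share. No marker ratio was 0. The RNA quality controls, the log2 difference between 3′ and 5′ probe sets, were -0.04 to 0.15 for beta-actin in AP20187 livers and -0.18 to -0.02 in untreated livers, and -0.14 to 0.19 and -0.06 to -0.01 for Gapdh. The part of these values in the fall of the members was not tested.

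On HFD more members were called lower than higher. Averaged over the genotypes, 52 of 160 probe sets (32.5%) were lower, 14 (8.75%) higher and 94 not called. Among all probe sets 14% were lower and 13.5% higher, so only the lower share of the members lay above that of all probe sets. The median was -0.25, against -0.07 for all probe sets. By gene, 33 were lower, 9 higher, 2 (Cox5a and Uqcrb) had a probe set called each way and 43 had no call. Complex I had 24 of 68 lower and 6 higher (median -0.28), complex IV 12 of 32 and 1 (-0.33), complex V 9 of 28 and none (-0.25), complex III 5 of 15 and 3 (0.01), complex II 1 of 7 and 1 (0.01), and the assembly factors 1 of 10 and 3 (0.04). The count of lower members rests on few arrays: with any 1 of the 8 arrays left out it was 14 to 27, and that of higher members 7 to 16.

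**Figure D4:**
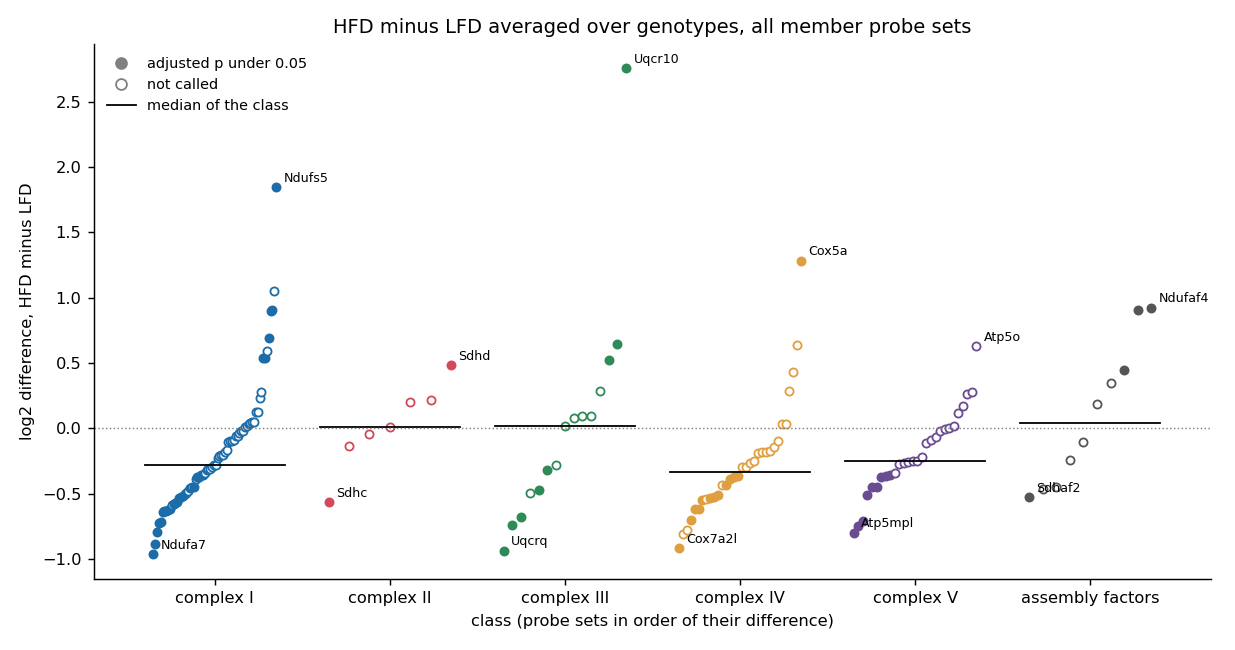
Difference between HFD and LFD livers, averaged over the genotypes, for each of the 160 member probe sets (vertical axis, log2), by class and in order of size (horizontal axis); filled points were called and horizontal bars are class medians. Most called points of complexes I, IV and V lie below 0, with single probe sets of Uqcr10, Ndufs5 and Cox5a far above the others of their class.

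Within the genotypes, 23 members were lower and 4 higher with HFD in wildtype, where 6.63% of all probe sets were lower and 7.97% higher. In Alb::GC 1 was lower and 7 higher, where 2.13% of all probe sets were lower and 4.64% higher. In wildtype these counts were 0 to 13 lower and 0 to 5 higher with 1 array left out, whichever it was. In Alb::GC they were 0 lower and 0 to 9 higher. Fitted on the 4 arrays of a genotype alone, wildtype had 1 lower and 3 higher members, and Alb::GC had none lower and none higher. The median difference was -0.35 in wildtype and -0.16 in Alb::GC. The difference between the genotypes in their response was tested by the interaction, which called 0 members either way, and 0% of all probe sets lower and 0% higher (smallest adjusted p among members 0.178, with 1 lower and 7 higher, 0.625% and 4.38%, at an unadjusted p under 0.05 by limma, beside 5.18% and 5.94% of all probe sets). Across the 160 probe sets the responses of the genotypes, which share no arrays, correlated at r = 0.67 (Spearman 0.69). No such correlation was computed over all probe sets, so this value cannot be called particular to the members.

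The share of probe sets called lower with HFD was 35.3% in complex I, 33.3% in complex III, 37.5% in complex IV and 32.1% in complex V, against 14.3% (1 of 7) in complex II and 14% of all probe sets. In complex III 20% were called higher as well, beside 13.5% of all probe sets, and its median was 0.01. Its lower sets included 3 of Uqcrq, whose calls were lost in 10, 8 and 8 of 14 alternatives. Cox7a2l, which had no call with AP20187, was lower in all 3 sets, at -0.92 ± 0.17, -0.70 ± 0.16 and -0.62 ± 0.14 (limma, adjusted p = 0.0134, 0.0256 and 0.023); the calls of 2 of these sets were each lost in 6 of 14 alternatives (adjusted p up to 0.0736 and 0.0692). In the first its ratios were 0.52 and 0.59 in HFD Alb::GC and 0.49 and 0.49 in HFD wildtype, against 0.94 and 0.96 in LFD Alb::GC and 1.04 and 1.19 in LFD wildtype. All 4 HFD arrays lay below all 4 LFD arrays. Ndufa7, an accessory subunit, was lower in 3 of 5 sets, from -0.97 ± 0.15 to -0.45 ± 0.10, of which 2 calls were lost in 7 and 4 of 14 alternatives (adjusted p up to 0.0705 and 0.0571). Its lowest set was the single member called lower within Alb::GC (-1.07 ± 0.21). Atp5mpl, at -0.80 ± 0.13, and Atp5e, at -0.75 ± 0.12, were the lowest in complex V. Ndufb8, an accessory subunit often used as a marker of assembled complex I, had 0.73 and 0.7 in HFD Alb::GC and 0.75 and 0.8 in HFD wildtype, against 0.97 and 1.2 in LFD Alb::GC and 1.46 and 1.45 in LFD wildtype livers. These did not overlap between the diets (-0.71 ± 0.12, adjusted p = 0.00975). Ndufb1 stood at -0.88 ± 0.17, and Ndufs8 was lower in 4 of 6 sets. The c ring and the catalytic subunits of complex II had no call with HFD: Atp5g1 stood at -0.34 ± 0.11, Sdhb at -0.14 ± 0.11 and the 2 sets of Sdha at -0.04 ± 0.12 and 0.21 ± 0.13.

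The 3 largest called rises with HFD were in Uqcr10, Ndufs5 and Cox5a. Uqcr10, a small subunit of complex III, had ratios of 4.39 and 4.83 in HFD Alb::GC and 4.68 and 6.06 in HFD wildtype, against 0.62 and 0.42 in LFD Alb::GC and 1 and 0.86 in LFD wildtype. The groups lay far apart (2.76 ± 0.19, limma, adjusted p = 0.00139), a second set rose by 0.64 ± 0.09, and the other stood at -0.49 ± 0.16 (adjusted p = 0.0622). Ndufs5, an accessory subunit of complex I, had 3.53 and 3.36 in HFD Alb::GC and 3.59 and 3.76 in HFD wildtype, against 0.8 and 1.04 in LFD Alb::GC and 0.99 and 1.01 in LFD wildtype (1.84 ± 0.15, adjusted p = 0.00176). A probe set that names Ndufs5 and its pseudogene stood at -0.19 ± 0.13. Cox5a had a set at 1.28 ± 0.16, with 1.69 and 1.53 in HFD Alb::GC and 1.75 and 1.61 in HFD wildtype, against 0.57 and 0.63 in LFD Alb::GC and 0.88 and 0.55 in LFD wildtype. Its second set was lower at -0.62 ± 0.11, with 0.73 and 0.73 in HFD Alb::GC and 0.77 and 0.79 in HFD wildtype, against 1.12 and 0.98 in LFD Alb::GC and 1.37 and 1.31 in LFD wildtype. The third stood at 0.03 ± 0.12, so no direction can be given for Cox5a with HFD, although the 3 sets agreed within 0.02 with AP20187. Uqcrb likewise had 1 set at 0.52 ± 0.12 and 1 at -0.32 ± 0.09, both called, but 6 and 12 of 14 alternatives lost these calls.

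Of the 46 genes with several probe sets, 12 disagreed in the diet comparison and 4 with AP20187, where disagreement means a called set beside a set on the other side of 0, or a spread over 1 on the log2 scale. The median spread between the sets of a gene was 0.38 with HFD and 0.15 with AP20187. By kind of probe set, those whose identifier ends in x_at, which share sequence with other transcripts, had 16 of 26 lower and 5 higher with HFD, and those ending in plain at had 22 of 79 lower and 8 higher. With AP20187 these kinds had 24 of 26 and 56 of 79 lower. Ndufc2 was called in 1 of 2 sets, at 0.91 ± 0.11 beside -0.09 ± 0.13. Ndufa12 was called in 1 of 4, at 0.69 ± 0.13. Sdhc was lower in 1 of 2 (-0.56 ± 0.16 beside 0.20 ± 0.09; 9 of 14 alternatives lost the call), with the fall in wildtype (-1.09 ± 0.23) and not in Alb::GC (-0.04 ± 0.23), a difference that the interaction did not call.

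**Figure D5:**
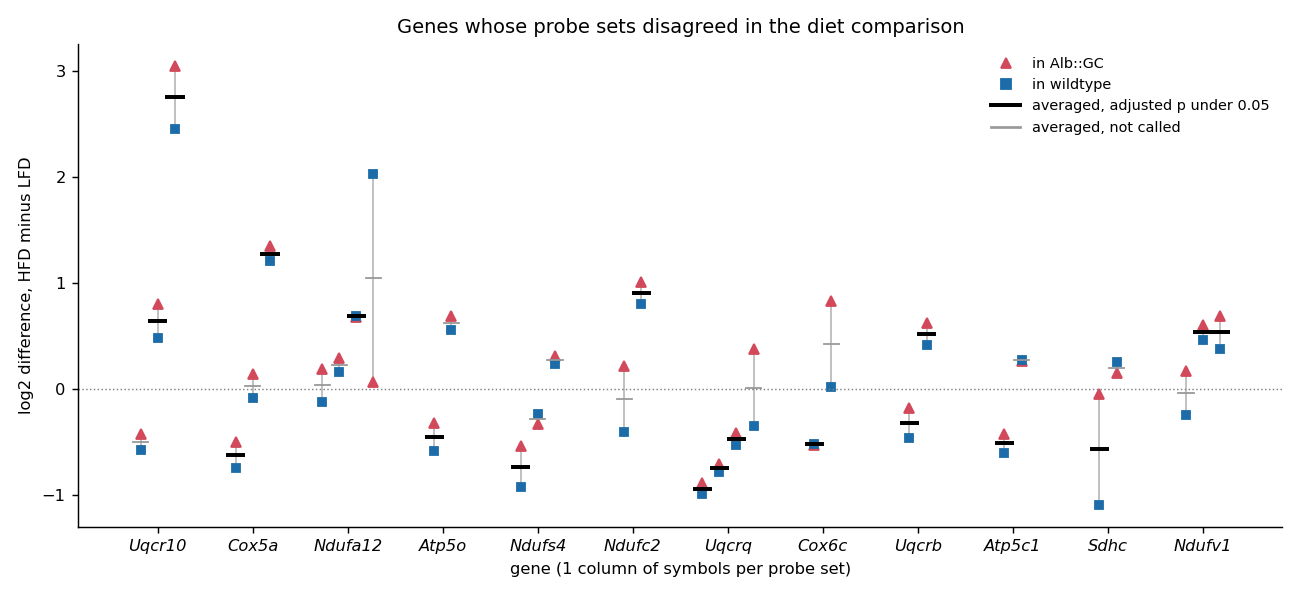
Difference between HFD and LFD livers (vertical axis, log2) for each probe set of the 12 genes whose sets disagreed (horizontal axis); triangles are Alb::GC, squares wildtype and bars the average, black where called. Uqcr10, Cox5a, Atp5o, Cox6c and Uqcrb are among the genes with probe sets on both sides of 0, and for most probe sets the genotypes lie close together.

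Ndufaf4 was higher with HFD by both of its probe sets, at 0.92 ± 0.14 and 0.90 ± 0.15 (limma, adjusted p = 0.00847 and 0.0114), as it was with AP20187. Its ratios were 1.81 and 1.39 in HFD Alb::GC and 1.02 and 1.28 in HFD wildtype, against 0.51 and 0.6 in LFD Alb::GC and 0.97 and 0.79 in LFD wildtype. The HFD arrays all lay above the LFD arrays of the same set. The rise passed in Alb::GC (1.44 ± 0.22 and 1.34 ± 0.20) and not in wildtype (0.37 ± 0.22 and 0.50 ± 0.20), a difference the interaction did not call. The other assembly factors were not of that kind: Ndufaf1 was higher at 0.45 ± 0.12 (adjusted p = 0.0372), 1 of 2 sets of Sdhaf2 was lower at -0.53 ± 0.11, and Sdhaf4 stood at 0.19 ± 0.11. Among all probe sets 13.5% were higher and 14% lower with HFD. Beside the members, the citrate cycle had 5 of 20 probe sets higher and none lower. The regulators had 10 of 25 higher (6 of 12 genes), 2 lower (both of Nrf1) and 13 not called. Among the higher were all 5 sets of Ppargc1a (0.90 to 2.33).

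Several measures of RNA moved with the diet. The 3′ to 5′ difference of beta-actin was -0.71 to -0.62 in HFD wildtype and -0.44 to -0.33 in HFD Alb::GC, against -0.03 to 0.21 in LFD wildtype and -0.16 to 0.18 in LFD Alb::GC. For Gapdh it was -0.31 to -0.22 in HFD wildtype and -0.23 to -0.15 in HFD Alb::GC, against 0.16 to 0.22 in LFD wildtype and 0.04 to 0.16 in LFD Alb::GC. The 3′ control for 18S rRNA had ratios of 0.08 to 0.25 in the HFD groups, against 0.84 to 5.92 in the LFD groups. The sums of all 6 marker lists overlapped between the diets. Hepatocyte markers summed to 19.85 to 21.04 in HFD Alb::GC and 18.93 to 18.97 in HFD wildtype livers. On LFD they summed to 16.14 to 17.81 in Alb::GC and 18.17 to 19.5 in wildtype livers. Of their 18 probe sets 6 were lower and 4 higher with HFD, beside 14% lower and 13.5% higher among all probe sets. The part of RNA quality or cell content in the diet differences, and in the disagreement between probe sets, was not tested.

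Between the genotypes no member was called on either diet. On LFD 0% of all probe sets were called lower and 0% higher, and on HFD 0.0972% lower and 0.0354% higher. Averaged over the diets these shares were 0% and 0%. On LFD 147 of 160 members lay below 0 in Alb::GC relative to wildtype, with a median of -0.25 against -0.06 for all probe sets, and 20 (12.5%) were lower and 1 (0.625%) higher at an unadjusted p under 0.05 by limma. Among all probe sets 57% lay below 0, and 5.78% were lower and 4.55% higher at that level. On HFD the median was -0.06 with 107 below 0, and 4 (2.5%) were lower and 3 (1.88%) higher at that level, beside 6.04% and 5.12% of all probe sets. Averaged over the diets it was -0.15, with 9 (5.62%) lower and 0 higher at that level, beside 6.28% and 5.19% of all probe sets. The smallest p on LFD in complex V was that of Atp5k, with ratios of 0.87 and 0.99 in LFD Alb::GC, against 1.55 and 1.55 in LFD wildtype livers. The groups of 2 arrays did not overlap, but -0.71 ± 0.13 had an adjusted p of 0.187. On HFD the same probe set had 1.04 and 0.99 in Alb::GC and 0.98 and 0.98 in wildtype livers (0.05 ± 0.13). Cox8c, a testis isoform, had the smallest p of complex IV on both diets, at -0.52 ± 0.16 on LFD and 0.69 ± 0.16 on HFD (adjusted p = 0.39 and 0.197). In complex III Uqcr10 had the smallest p on LFD and Uqcrc2 on HFD.

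Set side by side, the experiments share no arrays. Of the 132 members lower with AP20187, 44 were also lower with HFD, 11 were higher and 77 had no call. The 44 made up 33.3% of the members lower with AP20187, beside the 32.5% of all members that were lower with HFD. They made up 84.6% of the members lower with HFD, beside the 82.5% of all members that were lower with AP20187. Both shares lay near those of all members. The 2 probe sets higher in both experiments were those of Ndufaf4. Across the 160 probe sets the differences correlated at r = 0.13 (Spearman 0.06).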

How the data were processed

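Liver RNA was hybridised as biotinylated cRNA to Affymetrix arrays, per the labels' protocols. The authors deposited 1 table of linear ratios per probe set and array, given to 2 decimals, with array medians of 0.94 to 1.02 and a smallest value of 0.01; no source at hand names the software, the summary or what each ratio is relative to. Ratios carry no signal over background, so no probe set was judged detected or not. The 64 control probe sets were left out of the tests. The 16 arrays were grouped by their descriptions, and each experiment of 8 arrays was fitted alone with limma 3.58.1 (R 4.3.3, lmFit and eBayes with a variance trend) on log2 of the deposited ratio plus 0.05. Residual degrees of freedom were 6 for AP20187 and 4 for the diets. P-values are two-sided, with Benjamini-Hochberg adjustment over 22626 probe sets and a threshold of 0.05. Genes come from the platform annotation, and a gene counts as lower where at least 1 probe set was lower and none higher.

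Named genes are the up to 5 largest non-overlapping changes per complex with AP20187, rising genes, genes whose sets disagree, up to 10 called members per diet comparison or the smallest p of a complex without calls, Cox5a and the complex IV isoforms; genes named as examples of a role were added after their values were seen. The members, gene lists, roles and motifs were chosen with earlier results of these data known. The number of arrays limits the precision. Alternatives were 2 other offsets, median centring, quantile normalization, a filter on low ratios, no trend, only the groups compared and leaving out each array. The fit was also run on simulated data with independent noise between probe sets, and no result here rests on that run.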

Additional observations from a re-analysis of the deposited data

Results flagged for a closer look

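Outliers were sought in the AP20187 and untreated groups for the probe sets of named genes, which are part of the members. Of 220 such groups of 4 arrays, 5 held an array far from the other 3. In these the gap to its nearest neighbour divided by the range of the group passed Dixon's 95% critical value. Chance gives about 1 in 20 groups, but these genes were partly chosen by their values. For 1 probe set of Cox5b the quotient was 0.923, with AP20187 replicate 4 at 1.56 and the other AP20187 arrays at 0.14 to 0.25. For 1 probe set of Ndufaf4 it was 0.867 in the untreated group, with replicate 2 at 0.49 and the others at 0.62 to 0.64. For 1 probe set of Sdhaf2 it was 0.857, with AP20187 replicate 4 at 0.8 and the others at 0.98 to 1.01. For Cox8b it was 0.852, with AP20187 replicate 1 at 1.93 and the others at 0.38 to 0.61. For 1 probe set of Uqcrc2 it was 0.846, with AP20187 replicate 2 at 0.86 and the others at 0.97 to 0.99. None of the 160 members had a response to the diet that limma called different between the genotypes, 8 (5%) having an unadjusted p under 0.05, beside 11.1% of all probe sets.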

How the results depend on the processing

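Under AP20187 against untreated, the members called lower numbered 132 with either other offset (0.01 or 0.2) and with the filter on low ratios, 130 with median centring or without the variance trend, and 122 with quantile normalization, where their median was -0.57. They were 124 to 132 with 1 array left out, and 2 were higher throughout. With HFD in wildtype, quantile normalization left 10 lower and a fit of the 4 arrays compared left 1 lower and 3 higher, and leaving out an array gave 0 to 13 lower and 0 to 5 higher. With HFD in Alb::GC, quantile normalization gave 0 lower and the 4 arrays alone 0 lower and 0 higher, and leaving out an array gave 0 lower and 0 to 9 higher. Averaged over the genotypes, the 52 lower and 14 higher members became 45 and 15 with median centring. They were 39 and 11 with quantile normalization, and 43 and 11 without the variance trend. Leaving out an array gave 14 to 27 lower and 7 to 16 higher, and each such fit has fewer arrays. Genotype and interaction calls were 0 in every alternative run. By the probe set of smallest standard error, complex II had 0 genes lower with HFD averaged in place of 1, an alternative chosen after seeing the data. Signs were followed only with AP20187 and with HFD averaged, for chosen genes among those named. There they turned only in values without a call. With AP20187, 1 set of Cox7a2l stood at 0.0105 with median centring and 0.0296 with quantile normalization, and Tfam at 0.00677 with quantile normalization. With HFD averaged, 1 set of Uqcrq stood at -0.00725 with an offset of 0.2, and 1 set of Ndufv1 at 0.00449 with median centring and 0.00358 with quantile normalization. Leaving out an array turned signs with AP20187 in Cox6a2 (-0.38 to 0.0726), 2 sets of Cox7a2l (-0.019 to 0.0759 and -0.0802 to 0.0141) and a set each of Uqcrq (-0.29 to 0.00433), Uqcr10 (-0.0318 to 0.17) and Cox5b (-0.28 to 0.82). With HFD averaged it did so in a set each of Cox5a (-0.0351 to 0.10), Ndufv1 (-0.14 to 0.067), Ndufa12 (-0.0498 to 0.13), Uqcrq (-0.38 to 0.40) and Ndufc2 (-0.20 to 0.0194). The cause of these changes was not tested. No paired analysis was possible because the labels number no replicates.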
